A study of Mytilus galloprovincialis with 16 samples.

Results

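These values describe 150 cDNA clones of the mussel Mytilus galloprovincialis that gave bright spots in the digestive gland and whose male to female ratio stayed small at every stage of gonad development, out of 1920 clones on the array. They were chosen from the measurements themselves. The mean log2 ratio of the sexes had to lie within 0.4 of 0 at each of the 4 stages, which 1263 clones (65.78%) met. Among these, the 150 with the highest ratio of spot signal to local background over all 16 arrays were taken. The small sex ratio and the brightness are therefore properties of the choice, they were given no test, and the similar course of both sexes over the stages follows from it in part.

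The digestive gland of a bivalve digests and absorbs food, stores reserves and handles foreign compounds, and its state changes with feeding and with the reproductive cycle, when reserves are moved to the developing gonad. Transcripts present at like levels in males and females of such an organ commonly include those for basic cell functions, and genes of this kind are the usual source of reference genes for normalisation. No deposited table used here gives a gene for a clone, so whether these clones hold such genes was not tested. The clones are named by their identifiers, and the labelled tissue could not be checked against marker genes.

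The study followed relative transcript abundance of males and females over the reproductive season. On each array, total RNA from the digestive gland of a single male and of a single female of the same stage was hybridised together, the sexes carrying different dyes. All mussels came from a natural population of the Bizerta Lagoon in Tunisia, and the ages of the animals were not given in the sources used here. Stage 1 (early gonad, November), stage 2 (development, January), stage 3 (ripe, February) and stage 4 (spawning, March) had 4 arrays each, with males in Cy5 on 2 arrays and in Cy3 on the other two. Each stage was sampled in a month of its own, so that stage and month cannot be told apart. Stage 4 replicates 2 and 4 were no farther apart than duplicate spots of 1 array, less than the sampling noise, and their mean entered as 1 sample, so that there were 15 replicates and n = 3 at stage 4.

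Over the arrays, 34.53 to 61.25% of all clones gave a signal more than 2 SD above the local background in at least 1 channel. The brightest spot pixel mean on any array was 29130, so that no clone spot had a mean at the scanner maximum. Saturated pixels within a spot were not examined. The duplicate spots of the 150 clones correlated at r = 0.8705 to 0.9731 for the level and at 0.5726 to 0.9617 for the sex ratio on single arrays. The precision of a stage mean was limited by the number of replicates and by the spread between them, which includes spot noise. Over all clones, the sex ratios of stages 1 and 2 ran in opposite directions (r = -0.589, and -0.574 to -0.0598 between single arrays). The paper describes stage 2 as the exception to a stronger chitin metabolism in males. A true difference of stage 2 and an exchange of the sexes of its channels cannot be told apart here, and neither was tested. The direction at stage 2 is therefore in doubt. The choice of clones does not depend on the sign of a ratio, but values by sex at stage 2 do. Some of these values are also given with the sexes exchanged.

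The chosen clones covered a wide range of brightness, and most were only moderately bright. Their signal was 1.513 to 15.37 times the local background, with a median of 1.85, against a median of 1.232 and a highest value of 27.17 over all clones. Only 8 of the 150 were more than 4 times above background, and 16 were among the 100 brightest clones of the array. The last clone taken, Myt01-009C12, was in place 507 of all clones by brightness with a log2 signal over background of 0.5975, and the next clone outside, Myt01-019C10, had 0.5917. At the other limit, the largest stage ratio of Myt01-001E11 was 0.3995 and it was taken, while that of Myt01-004C05 was 0.4005 and it was not. Of the 507 brightest clones of the array, the ratio limit left out 357, so that 29.59% of the clones of this brightness range were chosen, against 65.78% of all clones within the limit at any brightness. Brightness of different spots also depends on the spotted DNA, so that it does not rank the transcripts by amount.

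**Figure D1:**
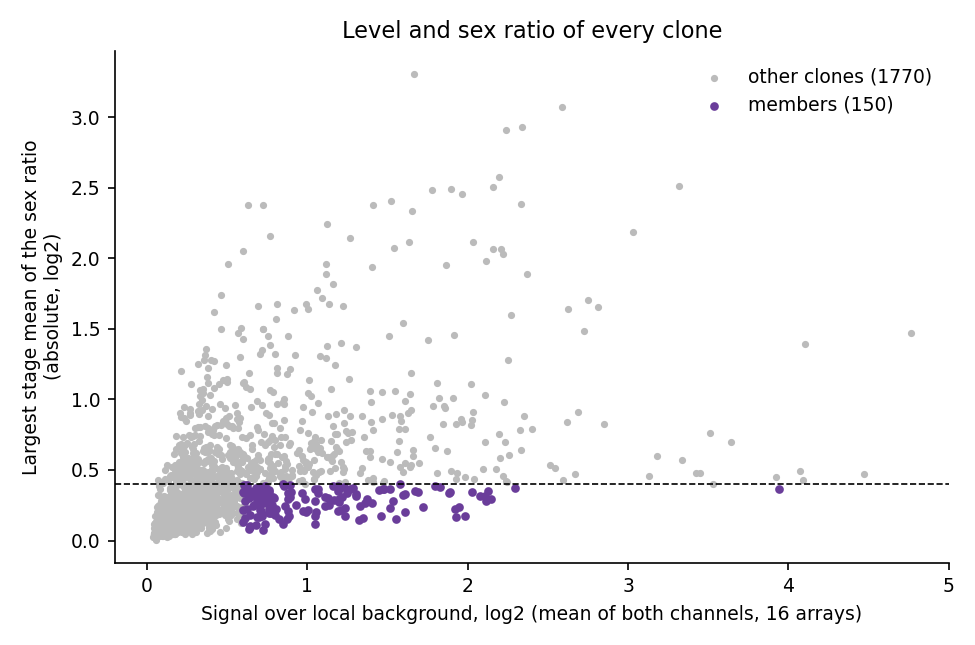
Each point is 1 clone. The horizontal axis is the log2 ratio of signal to local background, averaged over both channels and 16 arrays, the vertical axis is the largest absolute stage mean of the log2 sex ratio, and the dashed line is the limit of 0.4. The 150 chosen clones (purple) lie under the line and to the right, starting at a log2 brightness of 0.5975, and above the line the ratios of the bright clones reach far beyond them.

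Not all of the 150 clones were bright on every array, since the choice used a mean over arrays. In both sexes on all 16 arrays, 47 of the 150 stood more than 2 SD above background, beside 178 of all 1920 clones. A further 10 did so in both sexes on no more than 8 arrays, and the lowest count for any of them was 6 arrays. On single arrays, 89 to 150 of the clones were above background in the male channel and 94 to 150 in the female channel. The low counts came from stage 2 replicate 3 in males and stage 3 replicate 4 in females.

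The choice itself kept the stage means of the sex ratio small, but ratios on single arrays, each of which compared 1 male with 1 female, went farther. The ratio was larger than 2-fold on at least 1 array for 34 of the 150 clones, on 1 array for 31 and on 2 arrays for 3. Of the 2400 ratios of a clone on an array, 37 (1.542%) were that large, and 16 of these fell on stage 2 replicate 2, 7 on stage 1 replicate 2 and 7 on stage 4 replicate 1. None of the 150 clones had the same sign of the ratio on all 16 arrays, and 23 kept 1 sign over the 4 stage means. In the ratios used for the choice, stages 1, 2 and 3 had 100, 95 and 94 clones with a stage mean above 0, that is higher in males, and stage 4 had 49. With the sexes exchanged at stage 2 the 95 turned to 55.

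The number of clones higher in the male differed between single arrays, and what set the counts per stage was not tested. At stage 2 it was 104 and 99 on the arrays with the male in Cy5, and 56 and 51 on those with the male in Cy3. The median log2 ratio of the 150 clones was 0.4382 on stage 1 replicate 2, where 118 were higher in the male, and lay between -0.1461 and 0.1943 on the other 15 arrays. The SD of a clone's log2 ratio between replicates had medians of 0.338, 0.306, 0.249 and 0.249 at the successive stages. Over all clones these medians were 0.252, 0.229, 0.195 and 0.187. The 357 brighter clones left out by the ratio limit had 0.362, 0.477, 0.478 and 0.58. The stage means of the ratio, kept small by the choice, thus stood beside a spread between replicates above that of all clones and below that of the 357. This spread holds dye and spot noise besides differences between pairs of animals, and its parts were not separated.

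The dye moved with the ratio in the chosen clones. On arrays with the male in Cy5 their ratio was higher than on arrays with the male in Cy3 by a median of 0.1614 on the log2 scale (range -0.6702 to 1.001), the gap was above 0 for 104 of the 150, and it exceeded 0.5 for 13. Over all clones the median gap was -0.01463, and in the 357 left out it was 0.01494. Both dye orientations were equally frequent within each stage before the averaging of 2 stage 4 arrays. The part of the dye in the ratios of single clones was not tested.

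**Figure D2:**
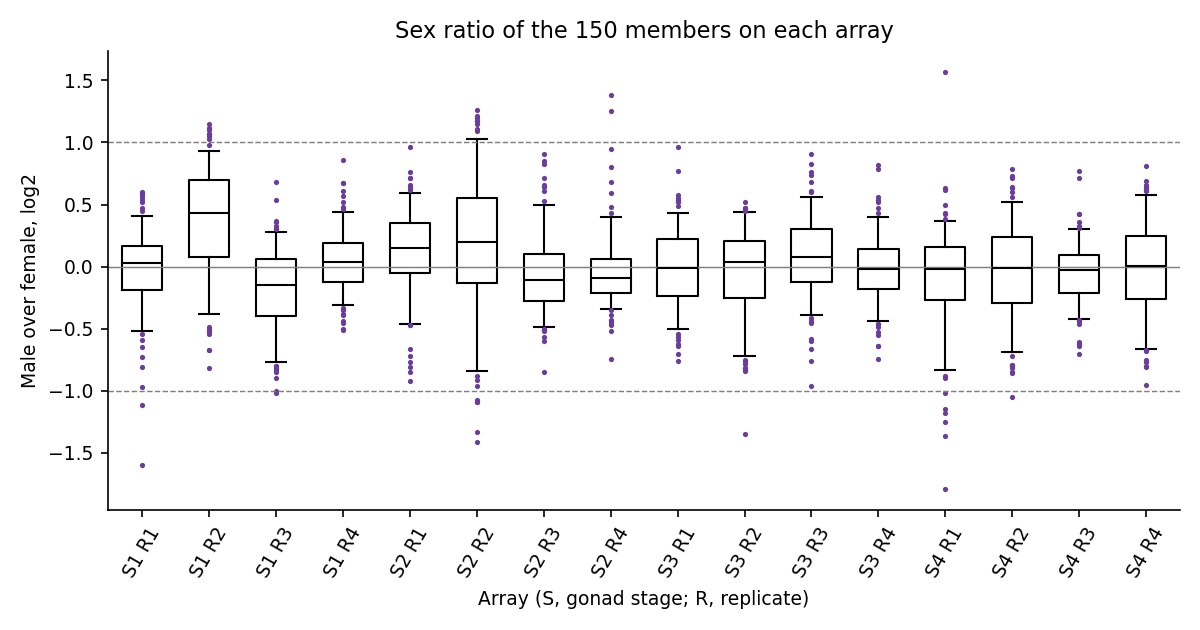
Boxes show the log2 ratio of male over female of the 150 clones on each of the 16 arrays (S, stage; R, replicate), with the median as a line, whiskers from the 5th to the 95th percentile and the clones beyond as points. Dashed lines mark a 2-fold difference. Most boxes are centred near 0, that of stage 1 replicate 2 is shifted upward to a median of 0.4382, and stage 2 replicate 2 has the most clones past 2-fold, 16.

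Within each sex, the size of the seasonal shift of the chosen clones depended on how arrays were scaled to each other, and under the main scaling it was small. The median log2 level of the 150 clones was 7.90 ± 0.165 (SD, n = 4) in males and 7.86 ± 0.13 (n = 4) in females at stage 1, and 8.06 ± 0.18 (n = 4) and 7.96 ± 0.116 (n = 4) at stage 2. It was 8.06 ± 0.21 (n = 4) and 8.04 ± 0.195 (n = 4) at stage 3, and 8.0 ± 0.166 (n = 3) and 8.03 ± 0.135 (n = 3) at stage 4. Under this scaling the replicates of every stage overlapped those of every other stage in both sexes, and the step from stage 1 to stage 2 was 0.158 in males and 0.108 in females. It was 0.484 and 0.433 without scaling and 0.524 and 0.472 after median centring, with the sexes as labelled. After median centring the males of stage 1 (7.57 to 7.77) lay just below those of stage 2 (7.78 to 8.65). With the sexes exchanged at stage 2, the males of stage 2 spanned 7.76 to 8.47 and overlapped those of stage 1. In males and females, the 357 brighter clones outside the ratio limit moved by 0.312 and 0.471 without scaling. They moved by 0.352 and 0.511 after median centring and by -0.0528 and 0.127 under the main scaling. In females as labelled, their step was thus at least as large as that of the chosen clones. The levels under the main scaling are normalised log2 signals after the distributions of all arrays were made alike. They show shifts of these clones against the rest of the array. In pieces of whole tissue, fewer cells of a type and less RNA per cell cannot be told apart.

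**Figure D3:**
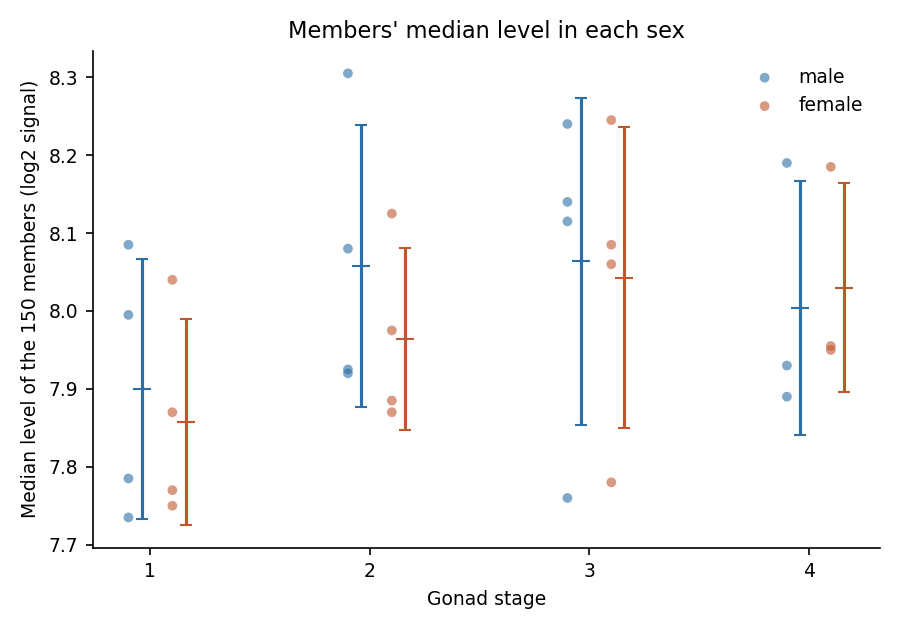
Points are the median log2 level of the 150 clones in each replicate, in males (blue) and females (orange), by gonad stage, and the bars beside them show the mean ± SD (n = 4, at stage 4 n = 3). Stage 1 has the lowest mean in both sexes, 7.90 and 7.86, and the replicates of all stages overlap.

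The course of single clones was seen in the mean of both sexes. The choice used the average of this measure over all arrays but not its differences between stages, and a clone that was bright at 1 stage could enter through that stage. The distance between the highest and the lowest stage mean was 0.1147 to 1.954 on the log2 scale, with a median of 0.5099. It was under 0.5 for 72 of the 150 clones and over 1, a 2-fold change, for 18. Stage 1 held the lowest stage mean of 80 clones, stage 2 that of 31, stage 3 that of 16 and stage 4 that of 23, while the highest was spread over the stages with 21, 47, 46 and 36 clones. In males alone the median distance was 0.5577, with 17 clones over 1, and in females alone 0.5696, with 21 over 1.

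A moderated F test over the 4 stages (limma, Benjamini-Hochberg adjustment over all 1920 clones, threshold 0.05) called 15 of the 150 clones (10%), beside 13.9% of all clones, 267 of 1920. Among the 357 brighter clones outside the ratio limit it called 130 (36.4%). The share of the chosen clones was below both. No test was made of these shares. The 357 were left out for a sex ratio past the limit at some stage in these same samples, and they were also brighter, with a median log2 level of 8.28 at stage 1 against 7.86 for the chosen clones. Among the clones left by a filter on dim spots, which kept all 150, the test called 18 of the 150 (12%) and 26.5% of all clones kept. Of the 15, only 3 were above background in both sexes on all 16 arrays. At an unadjusted p under 0.05, 36 of the 150 and 520 of all clones passed.

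In males alone the F test called 4 of the 150 (2.67%), beside 6.98% of all clones, 134 of 1920, and in females alone 14 (9.33%), beside 15.7%, 301 of 1920. All 4 clones called in males and 9 of the 14 called in females were among the 15 called for the mean of both sexes, 2 were called in each sex, and 4 of the 15 were called in neither. Of the 357, the test called 83 in males and 151 in females. The level of a sex includes part of the ratio that the choice limited at every stage. Few calls within a sex are therefore favoured by the choice among the 150, and many among the 357. The male and the female test were not compared with each other, so the counts do not show that the sexes differed. With the sexes exchanged on the arrays of stage 2, an alternative chosen after seeing the data, the counts turned to 12 in males, beside 12.6% of all clones, and 7 in females, beside 7.45%.

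**Figure D4:**
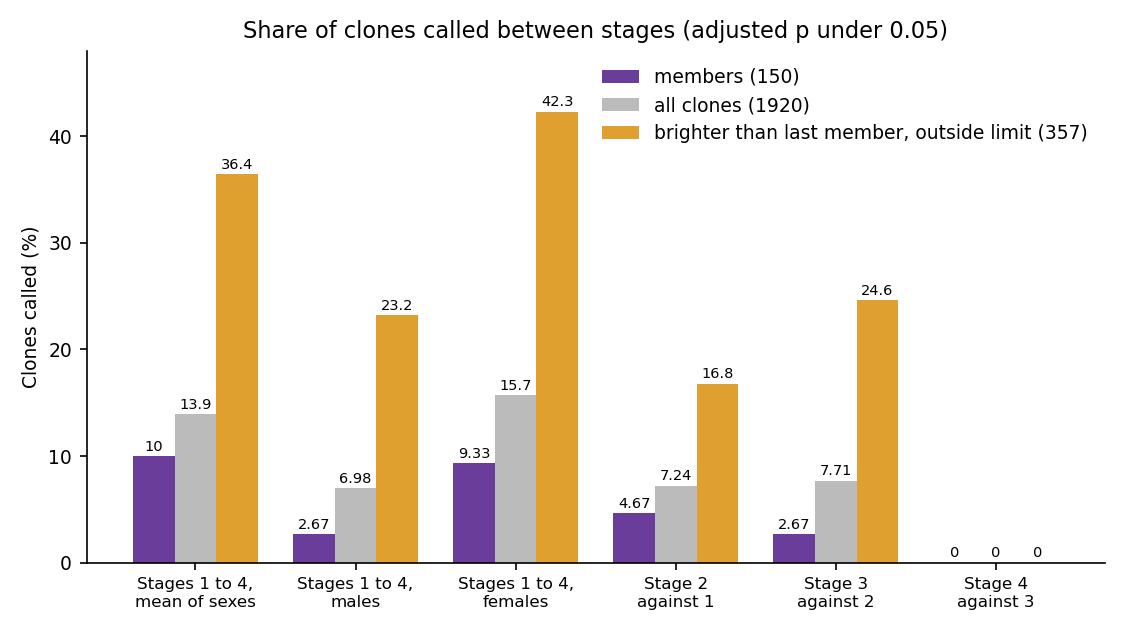
Bars give the percentage of clones called (limma, adjusted p under 0.05) among the 150 chosen clones (purple), all 1920 clones (grey) and the 357 clones that were brighter than the last chosen clone but outside the ratio limit (yellow), for the stage test in the mean of both sexes, in males and in females, and for the steps between successive stages in the mean of both sexes. The purple bar is the lowest of each of the first 5 groups, and no clone was called between stages 3 and 4. In males and in females alone, the choice itself favours few calls among the 150.

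These counts rested on the scaling between arrays and on single arrays. The stage test called none of the 150 without scaling between arrays, beside 100 of all clones, and 12 with each array centred on its median, beside 209. Without stage 3 replicate 4 it called 28 (18.7%), above the 17.4% of all clones called in that run. It called 8 on leaving out stage 1 replicate 3, stage 3 replicate 2, stage 4 replicate 1 or stage 4 replicate 3, beside 10.8 to 11.9% of all clones, and 9 without stage 2 replicate 1, beside 11%. In all 15 such runs the count lay between 8 and 28.

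Between stages 1 and 2, 7 of the 150 clones changed in the mean of both sexes, beside 7.24% of all clones, 139 of 1920. Of these 5 rose, beside 3.23% of all clones called higher, and 2 fell, beside 4.01% called lower. The median difference over the 150 was 0.218 on the log2 scale, 107 of them were above 0, and 3 differed more than 2-fold. Over all clones the median difference was -0.0108 and over the 357 it was 0.125. The median rise of the chosen clones kept its sign and was larger without scaling (0.55) and after median centring (0.59). The median level of the 357 also rose under these scalings, by 0.364 and 0.404, beside 0.444 and 0.483 for the 150. For 85 of the 150 the 95% interval of the difference lay wholly within a 2-fold change in either direction, and that interval reached a median of 0.563 to either side. The call was lost for all 7 without stage 2 replicate 1, and leaving out one of the arrays in turn gave 0 to 13 calls.

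Myt01-018D02 had the largest rise among the called clones of this step. Its log2 level was 7.28, 7.07, 6.33 and 7 in the 4 replicates of stage 1 and 8.07, 7.75, 8.13 and 7.72 at stage 2. All 4 replicates of stage 2 lay above all 4 of stage 1. The difference was 0.99 ± 0.262 (SE) with an adjusted p of 0.0366 in limma, a 1.993-fold rise. Fitted by sex it was 1.33 in females (adjusted p = 0.00555 in limma) and 0.66 in males (adjusted p = 0.3), and the difference between the sexes was not tested. With the sexes exchanged at stage 2 it was 1.03 in females and 0.96 in males.

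Myt01-006H12 rose at the same step. Its log2 level was 7.56, 6.77, 6.64 and 7.13 at stage 1 and 7.85, 8.16, 7.95 and 7.66 at stage 2, again with no overlap. The difference was 0.88 ± 0.232 (SE, adjusted p = 0.0367 in limma), with 0.89 in males (adjusted p = 0.0511) and 0.88 in females (adjusted p = 0.0459), or 0.98 and 0.79 with the sexes exchanged at stage 2. Neither Myt01-006H12 nor Myt01-018D02 was called in the stage test over all stages (adjusted p = 0.0867 and 0.0687 in limma). Without stage 2 replicate 1 the adjusted p values of Myt01-018D02 and Myt01-006H12 were 0.095 and 0.0794.

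Myt01-010E12 showed the largest fall. It was chosen in part through stage 1, where it was bright, so that a fall from that stage is favoured by the choice. Its log2 level was 8.28, 7.28, 8.81 and 9.98 at stage 1, the widest spread of any clone described here (SD 1.125), and 7.1, 7.16, 6.88 and 6.63 at stage 2. Even the lowest replicate of stage 1 was above the highest of stage 2. The difference was -1.64 ± 0.424 (SE, adjusted p = 0.0329 in limma), a 3.125-fold fall. It was -1.18 without stage 1 replicate 4, with an adjusted p of 0.0503. On stage 1 replicate 1 the log2 ratio of this clone was -1.6, lower in the male, and on stage 1 replicate 3 it was 0.68. Its stage 1 mean of -0.258, the farthest from 0 of its 4 stages, thus averaged unlike arrays.

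Myt01-009E01 fell between stages 1 and 2 and rose again between stages 2 and 3. Its log2 level was 8.91, 8.85, 9.24 and 9.3 at stage 1, then 8.21, 7.95, 8.31 and 8.07 at stage 2, then 8.94, 8.53, 8.8 and 9.77 at stage 3. Its 3 replicates of stage 4 were at 9.34, 8.74 and 8.91. The stage 2 replicates lay below those of every other stage. The fall was -0.94 ± 0.229 (SE, adjusted p = 0.0256 in limma) and the rise 0.88 ± 0.229 (adjusted p = 0.0307). Males fell by 1.04 and females by 0.85 on the log2 scale at the first of these steps, with adjusted p values of 0.0548 and 0.0371 in limma, and by 0.86 and 1.02 with the sexes exchanged at stage 2. The clone was above background in both sexes on all 16 arrays. Without scaling between arrays the fall was -0.61 (adjusted p = 0.403) and the rise 0.68 (adjusted p = 0.388), and without stage 2 replicate 2 both calls were lost (adjusted p = 0.0719 and 0.0789).

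Between stages 2 and 3, 4 of the 150 clones changed, 2 in each direction, beside 7.71% of all clones, 148 of 1920, of which 3.44% were called higher and 4.27% lower. Among the 357 brighter clones outside the ratio limit 88 (24.6%) were called. The median difference over the 150 was 0.0577, 84 of them were above 0, 1 differed more than 2-fold, and for 107 the 95% interval lay within a 2-fold change. The median turned to -0.178 without scaling, where the median difference over all clones was -0.0829 and their median level moved by -0.107, and to -0.071 after median centring. None of the 4 was called without stage 2 replicate 1, and the count was 8 without stage 3 replicate 4 and 1 without stage 2 replicate 2 or stage 2 replicate 4.

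Myt01-016C01 had the smallest adjusted p of the 150 in the stage test (0.00232 in limma), with levels that were higher late in the season. Its log2 level was 7.56, 7.46, 7.77 and 7.58 at stage 1, then 7.74, 7.61, 8.05 and 7.5 at stage 2. It was 8.4, 8.08, 8.08 and 8.39 at stage 3, and 8.44, 8.36 and 8.46 at stage 4. All replicates of stages 3 and 4 lay above all replicates of stages 1 and 2, by a small margin at stage 2 replicate 3. The step from stage 2 to stage 3 was 0.52 ± 0.133 (SE, adjusted p = 0.0288 in limma). The stage test held on leaving out each of the 15 replicates in turn (adjusted p = 0.000901 to 0.00788). It was lost in 2 of the 26 alternatives, among them without scaling (adjusted p = 0.326).

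Myt01-008F10 and Myt01-012H02 were the clones that fell between stages 2 and 3. Myt01-008F10 was at 8.48, 8.19, 8.07 and 7.79 at stage 1 and at 8.06, 8.55, 7.95 and 8.2 at stage 2, then at 6.85, 6.78, 7.8 and 7.55 at stage 3 and at 6.93, 7.65 and 6.86 at stage 4. It thus stayed high for the first pair of stages and low for the second, overlapping only where stage 3 replicate 3 (7.8) reached stage 1 replicate 4 (7.79). The fall from stage 2 was -0.94 ± 0.255 (SE, adjusted p = 0.0366 in limma). Its stage test (adjusted p = 0.0193) held on leaving out each of the 15 replicates in turn and was lost without scaling between arrays (adjusted p = 0.102), and the clone was above background in both sexes on 11 arrays.

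Myt01-012H02 was at 8.63, 8.43, 7.77 and 7.76 at stage 1 and at 8.9, 9.39, 8.41 and 8.43 at stage 2. At stage 3 it was at 7.85, 8.03, 7.89 and 7.18, below all replicates of stage 2. The fall was -1.05 ± 0.275 (SE, adjusted p = 0.0319 in limma), and -0.84 without stage 2 replicate 2 (adjusted p = 0.0898), the array on which this clone's log2 sex ratio was 0.68. In the stage test, the calls of Myt01-012H02 and Myt01-010E12 were each lost in 13 of the 15 runs without 1 replicate. That of Myt01-009E01 was lost in 5.

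The 8 calls of single clones at these 2 steps depended on the arrays of stage 2. All 8 were lost without stage 2 replicate 1 and also without stage 2 replicate 2, while no difference changed its sign. Each was lost in 4 to 9 of the 15 runs without 1 replicate, the rises of Myt01-018D02 and Myt01-006H12 in 9 each, among them all runs without a replicate of stage 2. Myt01-010E12 lost its call in 6 runs (stage 1 replicates 3 and 4 and each replicate of stage 2). For the other calls the further arrays were stage 1 replicates 3 and 4, stage 2 replicate 4 and the replicates of stage 3.

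Between stages 3 and 4 none of the 150 clones and none of all 1920 (0%) was called in limma. At an unadjusted p under 0.05, 3 of the 150 and 62 of all clones passed. The median difference over the 150 was -0.0623 (-0.148 without scaling and -0.18 after median centring), 59 were above 0 and none differed more than 2-fold. For 112 of the 150 the 95% interval lay within a 2-fold change. For the remaining clones the interval reached past a 2-fold change.

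Myt01-019B07 moved farthest over the season. Its log2 level was 8.28, 6.29, 8.36 and 8.13 at stage 1, then 8.59, 8.36, 8.12 and 8.48 at stage 2. It was 9.98, 9.1, 8.75 and 9.39 at stage 3, and 9.62, 9.7 and 9.84 at stage 4. Every replicate of stages 3 and 4 lay above every replicate of stages 1 and 2. The stage means were 1.95 apart, 3.876-fold, with an adjusted p of 0.0153 in the stage test of limma. Without stage 1 replicate 2, the low sample of stage 1, they were 1.46 apart (adjusted p = 0.0017), and without scaling between arrays 1.83 (adjusted p = 0.116). Both sexes passed the stage test alone, with adjusted p values of 0.0482 in males and 0.0161 in females.

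The clones with the smallest distance between stages were Myt01-017G08 and Myt01-006H01. The stage means of Myt01-017G08 were 7.75 ± 0.32, 7.80 ± 0.222, 7.86 ± 0.244 (SD, n = 4) and 7.80 ± 0.366 (n = 3), which is a distance of 0.1147. Its replicates ranged from 7.42 to 8.13 within stage 1, so that arrays of 1 stage differed by more than the stage means did. Myt01-006H01 had stage means of 8.62 ± 0.377, 8.71 ± 0.254, 8.69 ± 0.42 (n = 4) and 8.60 ± 0.281 (n = 3), a distance of 0.1192. Its log2 sex ratio nevertheless ran from -0.77 on stage 1 replicate 3 to 1.09 on stage 2 replicate 2. Both had an adjusted p of 0.9745 in the stage test of limma, which does not show that their levels were equal. The dye moved with the ratio of both, which on arrays with the male in Cy5 was higher by 0.338 for Myt01-017G08 and by 0.736 for Myt01-006H01.

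**Figure D5:**
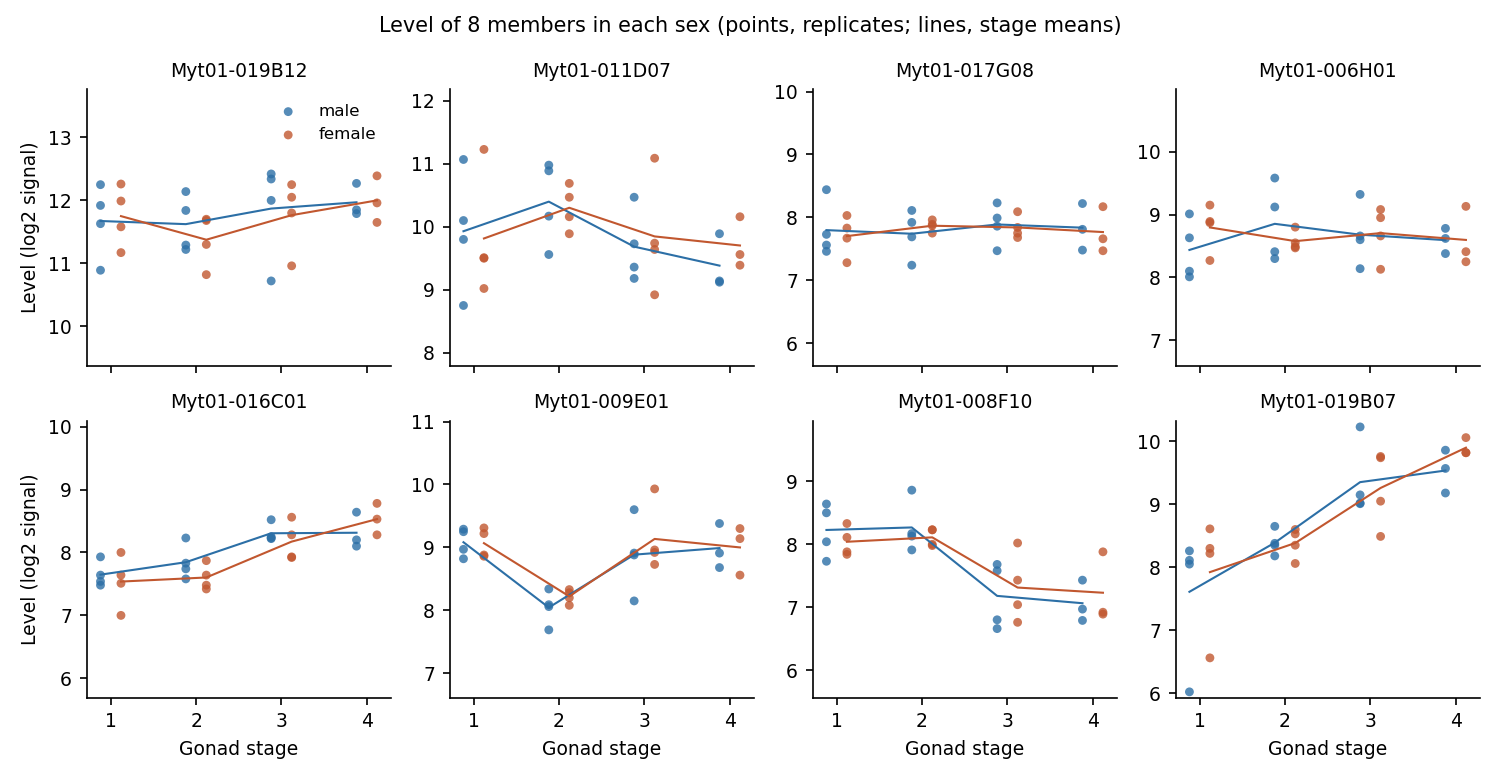
Each panel shows the log2 level of 1 clone by gonad stage, in males (blue) and females (orange), with a point per replicate and a line through the stage means. Every panel spans the same log2 range. The upper row holds the brightest clones, Myt01-019B12 and Myt01-011D07, and those with the smallest distance between stages, Myt01-017G08 and Myt01-006H01, and the lower row holds clones called in the stage test, in which the stage means of both sexes take a similar course.

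The 4 brightest of the 150 clones were not called in the stage test. Myt01-019B12, in place 6 of all clones, had a signal 15.37 times the background and log2 levels of 12.25, 11.96, 11.6 and 11.03 at stage 1, 11.77, 11.45, 11.72 and 11.05 at stage 2, 10.84, 12.29, 12.24 and 11.9 at stage 3, and 12.33, 11.87 and 11.75 at stage 4. Its stages overlapped, and its stage means were 0.487 apart (adjusted p = 0.755 in limma). Its log2 sex ratio ran from -0.46 on stage 2 replicate 2 to 0.83 on stage 2 replicate 3.

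Myt01-011D07, Myt01-010E11 and Myt01-011G03 followed in brightness at 4.911, 4.414 and 4.372 times the background. Their stage means lay 0.807, 0.976 and 1.04 apart, as far as those of called clones, with adjusted p values of 0.633, 0.176 and 0.39 in limma. Their replicates differed by as much: Myt01-011D07 ran from 8.89 to 11.15 within stage 1, and Myt01-011G03 from 8.94 to 10.91 within stage 2. For Myt01-010E11 the adjusted p was 0.0396 without stage 3 replicate 4.

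Under the main scaling the median course of the 150 clones was low at stage 1 and nearly level thereafter, whereas without scaling and after median centring a larger rise at stage 2 was followed by negative median steps (-0.178 and -0.148, and -0.071 and -0.18). The median level of the 357 brighter clones outside the ratio limit also rose at stage 2 and fell at both later steps under these alternatives. Relative to each clone's own mean, the median log2 level of the 150 under the main scaling was -0.151, 0.0378, 0.0717 and 0.0198 at stages 1 to 4. The clones whose 4 stage means correlated best with these values were Myt01-011A09 (r = 0.9996) and Myt01-018A08 (r = 0.9972), over 4 stage means only and thus without a test. The stage means of Myt01-011A09 were 7.32 ± 0.362, 7.99 ± 0.39, 8.09 ± 0.707 (SD, n = 4) and 7.92 ± 0.241 (n = 3), and those of Myt01-018A08 were 6.91 ± 0.186, 7.57 ± 0.397, 7.76 ± 0.37 (n = 4) and 7.53 ± 0.227 (n = 3). Neither was called in the stage test (adjusted p = 0.285 and 0.058 in limma).

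The clones at the edges of the choice differed in their course. Myt01-009C12, the dimmest, was above background in both sexes on 7 arrays, and its stage means lay 0.757 apart (adjusted p = 0.0381 in limma), a call that 9 of the 15 runs without 1 replicate lost. Myt01-001E11, nearest the ratio limit, had a log2 ratio of -0.83 on stage 3 replicate 2, of -1.05 on stage 4 replicate 2 and of -0.95 on stage 4 replicate 4, while it was 0.36 and 0.2 on the other arrays of stage 4. Stage 4 replicates 2 and 4 count as 1 sample. The male was in Cy3 on the arrays with these negative ratios and in Cy5 on those other arrays. On arrays with the male in Cy5 the ratio of this clone was higher by 0.391. Its stage means of the level lay 0.452 apart (adjusted p = 0.162).

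The clone identifiers carry a plate number, a feature that the choice did not use. Each of the 20 plates held 96 clones. The chosen clones came from 19 plates, with 15 from plate 10, 14 each from plates 15 and 16, 11 each from plates 11 and 12, and 2 each from plates 3 and 5. Plate 20 held none, and it held no clone of that brightness at all. Among clones at least as bright as the last one chosen, the share within the ratio limit ran from 10% on plate 3 to 61.5% on plate 8, where 8 of 13 were chosen. Whether the plates differ in the genes they hold was not tested.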

How the data were processed

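The deposited scanner files hold, for each spot, intensities on a linear scale in both channels, which the authors read with GenePix and deposited without normalisation. The value table deposited by the authors gives a log2 ratio of female over male per spot. It correlated with the loess-normalised scanner ratios at r = 0.93 to 1 and served only to choose the clones. The submitters' processing notes name limma.

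From the intensities, background was corrected by normexp with an offset of 50, ratios were normalised by loess and mean levels by Aquantile in limma 3.58.1 (R 4.3.3), the duplicate spots being averaged. The levels of males and females are the mean level shifted up and down by 0.5 times the ratio. A linear model with 1 coefficient per stage (lmFit, eBayes) was fitted to 1920 clones, with a dye term in the fits of single sexes, and had 11 residual degrees of freedom (10 for single sexes). Tests were two-sided, adjusted by Benjamini-Hochberg at 0.05. The fit was tested on simulated data.

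In stage 4, replicates 2 and 4 differed by 0.492 times the variance expected from duplicate spots, where the other 23 same-stage pairs had 1.61 to 12.6, and were averaged. Each replicate is a different pair of animals as far as the labels say.

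The clones, lists and tests were chosen with earlier results of these data known. The clones described singly are the 4 brightest, up to 2 that rose and 2 that fell most among those called between successive stages, those with the smallest and largest distance between stage means, those at the edges of the choice, and those most like the median course. Lists of pathway genes and of cell type markers could not be used, since no clone was named. Alternatives covered background correction, scaling, loess, a filter on dim clones, the replicates, blocks, the variance model, the channels, the choice of clones and each replicate left out.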

Additional observations from a re-analysis of the deposited data

Results flagged for a closer look

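In the clones described singly, 6 of 108 groups of 4 arrays held a sample far from the others, about the number (5) that chance gives at a rate of 1 in 20. On stage 3 replicate 4, Myt01-010E12 had a log2 level of 6.61 (others 7.58 to 7.64) and a log2 sex ratio of 0.03 (others -0.33 to -0.29). On the same array Myt01-016C01 had a ratio of -0.34 (others 0.24 to 0.33) and Myt01-017G08 one of -0.21 (others 0.12 to 0.15). Myt01-012H02 had a ratio of 0.68 on stage 2 replicate 2 (others -0.13 to 0.01). Myt01-019B07 had a level of 6.29 on stage 1 replicate 2 (others 8.13 to 8.36). Of the 6, 4 fell on stage 3 replicate 4, the array with the lowest correlation between the ratios of duplicate spots over all clones (r = 0.436).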

How the results depend on the processing

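Counts of called clones among the 150 stood at 15 (stage test), 7, 4 and 0 (successive steps), 4 (males) and 14 (females). The shares of all clones called were 13.9% (stage test), 7.24, 7.71 and 0% (successive steps), 6.98% (males) and 15.7% (females). Without scaling between arrays the counts among the 150 were 0, 0, 0 and 0, and 1 in males and 1 in females. There 5.21, 0.99, 4.74 and 0% of all clones were called, and 4.58% in males and 7.08% in females. Median centring gave 4 and 1 at the first and second steps and 1 in males, beside 6.15, 6.56 and 5.89% of all clones. Without background correction the stage test called 9, males 1 and females 9, beside 11.1, 4.79 and 11.8% of all clones. With an offset of 10 males had 2, beside 8.44%. With all 16 arrays males had 9, beside 9.9% of all clones, and with the separate channel fit 7, beside 7.81%. With clones chosen by loess-normalised ratios, 130 of which were shared, the second step had 9 and males 9, beside 7.71 and 6.98%. With the sexes exchanged at stage 2, males had 12 and females 7, beside 12.6 and 7.45%. Leaving out 1 replicate gave 8 to 28 in the stage test and 0 to 13, 0 to 8 and 0 to 1 at the steps. Males had 1 to 13 and females 7 to 26. In these runs 10.8 to 17.4% of all clones were called in the stage test. The steps had 2.97 to 8.59%, 5.73 to 8.07% and 0 to 0.0521%, males 5.52 to 9.38% and females 9.64 to 19.9%. The highest count among the 150 came each time without stage 3 replicate 4. At the first step leaving out stage 1 replicate 3 gave 1, as did stage 2 replicate 2, beside 3.49 and 4.01% of all clones. Stage 2 replicate 4 gave 2, beside 3.85%, and stage 3 replicate 1 gave 11, beside 7.45%. Stage 1 replicate 4, stage 2 replicate 3 and stage 4 replicate 3 gave 4 each, beside 6.56, 5.26 and 5.47%. In males the count stayed within 1.5 times only without stage 1 replicate 2, stage 2 replicate 3, stage 3 replicate 1 or stage 4 replicate 3 (3 to 5). In females it was 7 to 9 without any one replicate of stage 2, without stage 3 replicate 2 or 3, or without stage 4 replicate 1. Why these counts moved was not tested. The stage test count among the 150 and the share of all clones both fell without scaling and both rose without stage 3 replicate 4. In males with an offset of 10 the count fell while the share rose. Whether any move concerned the 150 more than the whole array was not tested. The other alternatives stayed within 1.5 times of each count.

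The replicate block, fitted to all 16 arrays, gave 14 in the stage test, beside 13.9% of all clones. It gave 6, 3 and 0 at the steps, beside 6.25, 7.34 and 0%. Males had 6, beside 7.81%, and females 12, beside 13.5%. The replicate numbers did not pair the arrays (same-number correlations -0.283 to 0.269, and 1 of 16 arrays correlated best with its own number). Over 26 tests of single clones and 26 alternatives, 129 of 676 values lost their call, 15 gained one and 0 reversed.

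Leaving out saturated spots and blocking on slide or scan date were not run. No clone spot had a mean intensity at the scanner maximum, and the files give no slide or date. Low signal limits the rest: only 47 of the 150 clones were above background in both sexes on every array.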
